A study of Mus musculus with 12 samples.

Results

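The 10 genes described here encode chaperones and cochaperones of the endoplasmic reticulum (ER): Hspa5, Hsp90b1, Hyou1, Dnajb9, Dnajb11, Dnajc3, Sdf2l1, Calr, Canx and Creld2. They were chosen by name as ER folding factors of the unfolded protein response, with earlier results of these data known. All 10 were among the 13886 genes of the deposited matrix, and all 10 passed the filter on low counts in the main fit of every comparison below. Hyou1 was not tested in every alternative setting of the comparisons of states.

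Secreted and membrane proteins fold in the ER. When unfolded chains build up there, the sensors Ern1, Atf6 and Eif2ak3 signal to the nucleus, and factors such as Xbp1 and cleaved Atf6 switch on chaperone genes. A plasma cell passes large amounts of immunoglobulin through its ER, and Xbp1 is required for its secretory apparatus. Hspa5, also known as BiP, is an ER protein of the Hsp70 family that binds immunoglobulin heavy chains.

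Droplet-based single-cell RNA sequencing from the transcripts' 5′ ends was carried out on draining lymph node cells of 3 mice immunised with NP-KLH in Sigma Adjuvant System. Tamoxifen was given by gavage, and cells were taken on day 16 of the response, 5 days after tamoxifen. Per the labels, live IgD-negative eYFP+ plasma cells and B cells were sorted, hashtag antibodies to CD45 told the mice apart, and the plasma cell and remaining fractions had wells of their own. There are 12 labelled libraries in 6 groups: mRNA (4 libraries), BCR (1) and hashtag (1) libraries of the plasma cell fraction, and the same of the non-plasma-cell fraction. All groups share the immunisation and the tamoxifen, and the sources used here do not name the Cre driver or the strain. The cell states are those of the authors' table: plasma cells (PC, 137 cells), cells named prePC (49) and preMem (396), germinal center cells passing from light to dark zone (LZtoDZ, 165), dark zone cells (DZ, 3040) and light zone cells (LZ, 2213). GC stands below for LZtoDZ, DZ and LZ taken with equal weight.

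The 3 mice gave 1491, 2079 and 2430 cells with 12669908, 18664942 and 20638376 UMIs (unique transcript molecules). Median UMIs per cell were 24018 in PC, 9225 in prePC, 4119 in preMem, 19103 in LZtoDZ, 7875 in DZ and 6258 in LZ. Immunoglobulin transcripts took 36.4% of UMIs in PC and 0.817% to 2.96% in the other states. Plasma cell markers (7 genes, among them Sdc1, Prdm1 and Jchain) summed to 25404 to 29364 counts per 1000000 UMIs (CPM) over the mice in PC, and to 2967 to 5937 CPM in prePC. The same sum was 2696 to 2877 CPM in DZ, 1776 to 1918 CPM in LZ, 1472 to 1788 CPM in LZtoDZ and 1034 to 1172 CPM in preMem. Memory B cell markers (6 genes, among them Cd38 and Ccr6) summed to 1019 to 1319 CPM in prePC, 1377 to 1492 CPM in preMem and 78.7 to 117 CPM in PC. Of the lists for other cell types, the matrix held 6 of 6 T cell, 3 of 4 NK cell, 4 of 7 myeloid, 2 of 6 stromal and endothelial and 2 of 4 erythroid markers. In PC, the measured T cell, stromal and erythroid markers were at 0, and the myeloid (Lyz2) and NK cell (Gzma) lists reached 3.87 and 2.99 CPM in the highest mouse. In prePC, 3 of 4 measured myeloid markers (Lyz2, Csf1r and Adgre1) had 71 UMIs, up to 336 CPM in 1 mouse and 0 in the lowest, with C1qa at 0. There, 3 of 6 T cell markers (Cd3d, Cd3g and Trac) had 8 UMIs, up to 48.0 CPM and 0 in the lowest mouse, with Cd3e, Cd4 and Cd8a at 0, and Hbb-bt had 1 UMI. In 1 alternative the cells holding such RNA, 3 prePC among them, were left out. There the counts of the 10 genes called below for PC and for prePC against GC cells were the same, beside 26.5% and 9.24% of all genes. The remaining prePC of mouse 3 then fell short of the minimum of 10 cells a sum and were absent. In that fit prePC therefore rested on 16 cells of mouse 1 and 21 of mouse 2. Cell names fell into a larger and a smaller barcode series with 0 shared barcode sequences. The smaller series held 117 of the 137 PC, 2 prePC and 3 LZtoDZ cells and no others, so within it PC cannot be set against most other states. The authors drew the states from clusters and scores of the same transcriptomes: all 137 PC were cluster 6, and which genes enter the scores is not given in the sources used here. A state difference below is therefore a description of states that expression itself defined, and its p-value covers only the spread between the 3 mice.

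Of the 10 genes, all but Hyou1 had a promoter in the RefSeq table (build GRCm38.p6, 250 bases before to 50 bases after the start), and these 9 were searched on both strands for sequences known as targets of the unfolded protein response. The ER stress response element, CCAAT and CCACG with 9 bases between them, was found in 6 of these 9, and in 39 of all 32851 promoters (0.119%). Hspa5, Hsp90b1, Calr, Canx, Dnajc3 and Creld2 held it, Hsp90b1 with a copy on each strand. The related element, ATTGG and CCACG with 1 base between them, was found in Dnajb11, 7 bases after its start, and in 12 promoters in all (0.0365%). No promoter of the 9 held TGACGTGG, which 0.676% of all promoters did, and Dnajb9 and Sdf2l1 held none of the 3 motifs in this window. The windows with a match are shown 5′ to 3′ on the gene's strand because they carry the element that most of these genes share, with the fixed bases of each motif in capitals and motifs of the opposite strand as CGTGG followed by ATTGG.
Hspa5 (chr2:34771985-34772083, + strand): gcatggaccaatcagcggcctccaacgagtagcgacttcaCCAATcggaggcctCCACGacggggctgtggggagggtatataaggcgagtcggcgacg
Hsp90b1 (chr10:86705493-86705694, - strand): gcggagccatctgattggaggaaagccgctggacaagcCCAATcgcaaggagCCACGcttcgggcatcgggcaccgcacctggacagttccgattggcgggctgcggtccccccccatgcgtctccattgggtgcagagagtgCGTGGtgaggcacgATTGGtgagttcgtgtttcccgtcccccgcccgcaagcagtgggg
Dnajc3 (chr14:118937787-118937885, + strand): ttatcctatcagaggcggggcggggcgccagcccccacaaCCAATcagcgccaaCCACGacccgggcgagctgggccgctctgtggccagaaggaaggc
Dnajb11 (chr16:22857843-22857871, + strand): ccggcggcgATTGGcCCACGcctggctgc
Calr (chr8:84847035-84847133, - strand): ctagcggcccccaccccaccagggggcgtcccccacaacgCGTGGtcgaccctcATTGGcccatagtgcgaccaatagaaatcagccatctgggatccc
Canx (chr11:50325760-50325858, - strand): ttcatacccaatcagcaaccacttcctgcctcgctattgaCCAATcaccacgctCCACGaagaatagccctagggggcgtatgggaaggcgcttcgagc
Creld2 (chr15:88819480-88819578, + strand): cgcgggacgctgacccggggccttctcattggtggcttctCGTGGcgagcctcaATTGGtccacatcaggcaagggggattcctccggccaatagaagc
A match describes the letters of the window and is no evidence of binding. Only 6 tested genes outside the 10 had the first element, and they did not move alike between PC and GC. Derl3, Pdia6 and Syvn1, all of ER quality control, were higher in PC (log2 fold changes 4.88 ± 0.09, 3.10 ± 0.11 and 0.83 ± 0.11 SE), and Hnrnpa3, an RNA-binding protein, was lower (-0.74 ± 0.11). Pan2 and Alg12 were at 0.32 ± 0.35 and 0.46 ± 0.31 and did not pass the test.

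All 10 chaperones had their highest level in PC, in each mouse. Levels are CPM of the cells of a mouse and state summed, after edgeR's TMM scaling (trimmed mean of M-values), which keeps the immunoglobulin transcripts of PC from lowering every other gene. Tags were counted, so levels are not per length and the genes are not ranked against each other. Summed over the 10 genes, the level was 21468 ± 1315 CPM in PC (SD, n = 3 mice, as for all means below), 2597 ± 665 CPM in prePC, 1749 ± 104 CPM in LZtoDZ, 1177 ± 41.8 CPM in LZ, 941 ± 106 CPM in preMem and 864 ± 19.3 CPM in DZ. In every gene but Canx prePC came next after PC. The order below prePC varied, and DZ or preMem was lowest in 9 genes. Dnajb9 had its lowest mean in LZtoDZ.

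Among the chaperones of the Hsp70 and Hsp90 families, Hsp90b1, the Hsp90 protein of the ER, had the widest range. Its level was 12936, 11534 and 12112 CPM in the PC of mice 1, 2 and 3, and 964, 828 and 639 CPM in their prePC. It was 199, 285 and 207 CPM in preMem, 393, 353 and 350 CPM in LZtoDZ, 143, 150 and 150 CPM in DZ, and 184, 178 and 175 CPM in LZ. The PC and prePC values overlapped neither each other nor those of any other state. Of the summed level of the 10 genes, Hsp90b1 made up 56.8% ± 1.01 in PC, 31.7% ± 4.18 in prePC, 24.3% ± 2.44 in preMem, 20.9% ± 0.730 in LZtoDZ, 17.1% ± 0.540 in DZ and 15.2% ± 0.221 in LZ. Hspa5 was at 2749, 2253 and 3185 CPM in PC, 589, 737 and 331 CPM in prePC, 466, 395 and 463 CPM in LZtoDZ and 350, 323 and 316 CPM in LZ, and averaged 203 ± 33.5 CPM in preMem and 198 ± 0.297 CPM in DZ. The Hspa5 values of prePC overlapped those of LZtoDZ and LZ, since the prePC of mouse 3 were low. Hyou1, a large Hsp70-like protein that exchanges nucleotide on BiP, was at 157, 128 and 152 CPM in PC, against 23.4, 22.0 and 22.8 CPM in prePC and 23.2, 19.6 and 23.5 CPM in LZtoDZ. Outside PC no mean of Hyou1 exceeded that of prePC, 22.7 ± 0.704 CPM.

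**Figure D1:**
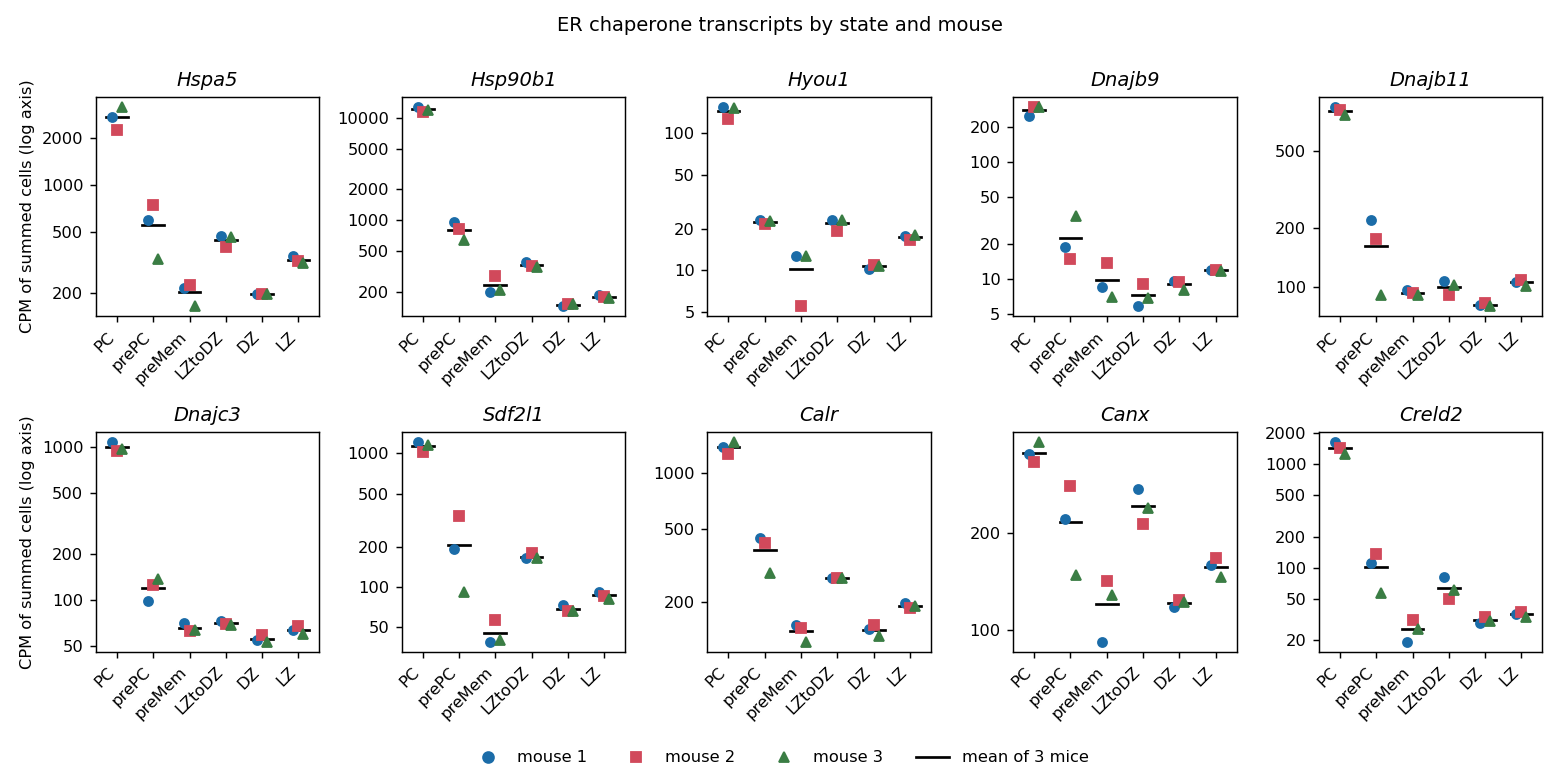
Each panel plots 1 gene: CPM on the TMM scale (log axis, its range set per panel) by state, with 1 point per mouse and a bar at the mean of 3 mice. PC lie above all other states in all 10 panels, and Canx has the narrowest range, with 354 ± 26.1 CPM in PC and 242 ± 30.3 CPM in LZtoDZ (SD).

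The J-domain proteins bring substrates to BiP or direct it to its tasks. Dnajb9, which in mammalian cells also recruits BiP to the sensor Ern1, was at 249, 295 and 298 CPM in PC, against 18.7, 14.7 and 34.2 CPM in prePC and 12.0, 12.0 and 11.7 CPM in LZ. It rested on few molecules outside PC: 11 UMIs in all 49 prePC. Dnajb11, which binds unfolded chains, was at 841, 805 and 762 CPM in PC, against 220, 176 and 91.3 CPM in prePC and 107, 109 and 102 CPM in LZ. Dnajc3, also known as an inhibitor of the kinase Eif2ak3, was at 1084, 944 and 973 CPM in PC, against 98.2, 125 and 137 CPM in prePC and 63.6, 67.8 and 59.9 CPM in LZ. Sdf2l1, a partner of Dnajb11, was at 1219, 1034 and 1155 CPM in PC, against 192, 337 and 91.3 CPM in prePC and 163, 178 and 163 CPM in LZtoDZ. For each of these the PC values stood clear of all other states. The prePC of mouse 3 were the lowest of the 3 in Dnajb11 and Sdf2l1 and the highest in Dnajb9 and Dnajc3.

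The lectin chaperones Calr, soluble in the ER lumen, and Canx, anchored in its membrane, bind glycoproteins while their sugar chains are trimmed. Calr was at 1388, 1273 and 1477 CPM in PC, 444, 418 and 285 CPM in prePC and 270, 269 and 269 CPM in LZtoDZ, with no overlap between these states. Canx was at 351, 330 and 382 CPM in PC, 220, 279 and 148 CPM in prePC and 273, 213 and 238 CPM in LZtoDZ. The Canx values of prePC and LZtoDZ overlapped. Creld2, a cysteine-rich ER protein with EGF-like domains that is induced by ER stress, was at 1639, 1435 and 1262 CPM in PC, against 112, 136 and 57.1 CPM in prePC and 81.1, 50.4 and 61.1 CPM in LZtoDZ.

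Between PC and GC cells, all 10 genes were higher in PC at an adjusted p under 0.05 (edgeR's quasi-likelihood test with mouse as a block, Benjamini-Hochberg over the 8473 genes tested, as for all comparisons of states below), beside 26.1% of all genes tested. Hsp90b1 had the largest difference of the 10, 5.84 ± 0.10 on the log2 scale (57.3-fold, adjusted p = 2.5e-16). Creld2 (5.12 ± 0.13), Dnajb9 (4.93 ± 0.11) and Dnajc3 (3.99 ± 0.09) followed, then Sdf2l1 (3.52 ± 0.16), Hyou1 (3.17 ± 0.12), Hspa5 (3.16 ± 0.16), Dnajb11 (3.07 ± 0.11) and Calr (2.84 ± 0.10). Canx had the smallest, 1.09 ± 0.12 (2.13-fold, adjusted p = 2.4e-09). The median was 3.34 over the 10 genes and -0.09 over all genes tested. With all UMIs as the base, immunoglobulin included, these medians were 2.46 and -1.0. Then 9 of the 10 passed, beside 11.5% of all genes higher, and Canx did not (0.20 ± 0.14, adjusted p = 0.173). In the larger barcode series, where PC of mice 2 and 3 had enough cells to be fitted and those of mouse 1 had not, 9 of 10 passed, beside 6.72% of all genes: Hsp90b1 was at 4.30, Creld2 at 3.26, Dnajb9 at 3.06 and Canx at 0.46 (adjusted p = 0.170).

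The 2 kinds of PC barcodes differed in level. Over non-immunoglobulin UMIs, the 10 genes summed to 22009, 20809 and 24153 CPM in the PC of the smaller series in mice 1, 2 and 3, and to 6920, 8378 and 12534 CPM in the PC of the larger series. Immunoglobulin took 40.9%, 41.2% and 33.4% of UMIs in the first and 5.57%, 13.8% and 10.6% in the second. The larger series held 3, 11 and 6 PC, and which well each series came from is not given in the sources used here.

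Other genes of the pathway were read from 3 lists. Of 16 tested sensors, proteases and transcription factors, 8 were higher in PC than in GC cells and 1 was lower (28.3% of all genes were lower), with a median of 0.64 on the log2 scale. Creb3l2, an ER-anchored transcription factor, was at 8.59 ± 0.26, Ern1 at 6.48 ± 0.39, Xbp1 at 4.91 ± 0.10, Atf6 at 2.32 ± 0.15 and Atf4, the factor downstream of Eif2ak3, at 0.82 ± 0.10. Eif2ak3 itself (0.21 ± 0.20, adjusted p = 0.409) and Ddit3, a proapoptotic target of Atf4 (0.36 ± 0.35, adjusted p = 0.391), did not pass, and Mbtps2, a protease that cleaves Atf6, was lower (-2.01 ± 0.53). All 15 tested other ER folding cofactors were higher in PC, with a median of 2.22; the disulfide isomerase Pdia4 was at 6.05 ± 0.11, Manf, an ER stress-induced factor, at 4.14 ± 0.17, and Sil1, another exchange factor of BiP, at 3.52 ± 0.17. Of 18 cytosolic and mitochondrial chaperones, 2 were higher and 10 lower in PC, with a median of -0.38. Dnajc7 (0.84 ± 0.14) and Dnaja3 (0.57 ± 0.21) were higher, while the cytosolic Hspa4 (-0.77 ± 0.12), Hsp90ab1 (-0.77 ± 0.11) and Dnaja1 (-0.74 ± 0.12) were lowest. With all UMIs as the base, 6 of the 16 sensors and factors were higher and 6 lower, 14 of the 15 cofactors higher and 1 lower, and 16 of the 18 cytosolic and mitochondrial chaperones lower and none higher, beside 11.5% of all genes higher and 70.8% lower.

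**Figure D2:**
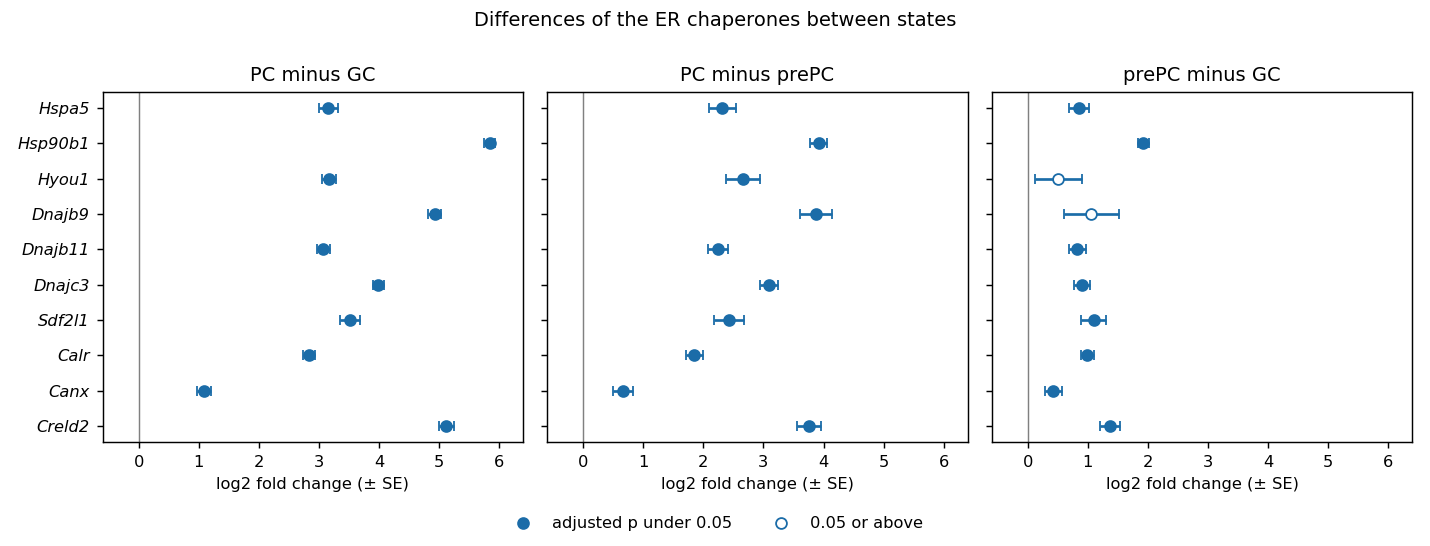
Log2 fold changes with SE for PC minus GC, PC minus prePC and prePC minus GC, filled where the adjusted p was under 0.05 (edgeR, 3 mice, TMM scale). Hsp90b1 has the largest value in each panel (5.84, 3.92 and 1.92); scaled to all UMIs, Canx turned to -0.07 between PC and prePC (adjusted p = 0.805), and no other of these 30 values changed sign.

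PC were also above prePC in all 10 genes by the test, beside 14.3% of all genes tested, and in all 10 no PC value of a mouse overlapped a prePC value, beside 21.1% of all genes with all 3 mice above. The log2 fold changes of PC against prePC were 3.92 ± 0.14 for Hsp90b1, 3.87 ± 0.26 for Dnajb9, 3.76 ± 0.20 for Creld2 and 3.09 ± 0.15 for Dnajc3. They were 2.66 ± 0.28 for Hyou1, 2.43 ± 0.25 for Sdf2l1, 2.31 ± 0.22 for Hspa5, 2.25 ± 0.16 for Dnajb11 and 1.85 ± 0.14 for Calr. Canx was at 0.67 ± 0.17 (adjusted p = 0.0031). In the larger barcode series, which held 47 of the 49 prePC but 20 of the 137 PC, the differences were smaller: 2.42 for Hsp90b1, 2.09 for Dnajb9, 1.95 for Creld2 and 1.84 for Dnajc3. There the other genes but Canx were at 1.40 to 1.72, and these 9 passed, beside 3.38% of all genes, while Canx was at 0.00 (adjusted p = 1.0).

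In prePC against GC cells, 8 of the 10 genes were higher, beside 11.1% of all genes tested. Hsp90b1 had the largest difference, 1.92 ± 0.10 (3.79-fold, adjusted p = 1.9e-09). Creld2 was at 1.36 ± 0.17, Sdf2l1 at 1.09 ± 0.20, Calr at 0.99 ± 0.11, Dnajc3 at 0.90 ± 0.13, Hspa5 at 0.85 ± 0.17, Dnajb11 at 0.83 ± 0.14 and Canx at 0.43 ± 0.14. Dnajb9 (1.05 ± 0.46, adjusted p = 0.124) and Hyou1 (0.51 ± 0.39, adjusted p = 0.460), both with few UMIs in prePC, did not pass. The median was 0.95 for the 10 genes and -0.07 for all genes. Of the sensors and factors, Atf6 (1.53 ± 0.32) and Xbp1 (1.36 ± 0.11) were higher in prePC. Eif2ak3 (-0.01 ± 0.42, adjusted p = 1.0), Atf4 (-0.37 ± 0.19, adjusted p = 0.267) and Ddit3 (0.20 ± 0.64, adjusted p = 0.886) did not pass, and Ern1 had 0 UMIs in prePC, which allows up to 5.33 CPM. The list had a median of -0.05. Of the 15 other cofactors 8 were higher, among them Pdia4 (2.93 ± 0.12), Sdf2 (1.56 ± 0.23) and Manf (1.10 ± 0.19), with a median of 0.67. Of the 18 cytosolic and mitochondrial chaperones 1 was higher, Dnajc7 (2.15 ± 0.14), and 4 were lower (8.36% of all genes were), with Stip1 (-0.85 ± 0.18), Hsp90aa1 (-0.83 ± 0.17) and Dnaja1 (-0.64 ± 0.13) lowest and a median of -0.38.

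The prePC call rested in part on 9 cells. Of the 49 prePC, 40 lay in the authors' cluster 4, which also held 374 of the 396 preMem, and 9 lay in other clusters. With the prePC of cluster 4 alone, 3 of the 10 genes passed against GC cells, beside 11.1% of all genes: Hsp90b1 (1.59, adjusted p = 8.4e-07), Calr (0.62, adjusted p = 0.00025) and Dnajb11 (0.62, adjusted p = 0.0099). Hspa5 was then at 0.42 (adjusted p = 0.0664), Sdf2l1 at 0.27 (adjusted p = 0.423), Creld2 at 0.57 (adjusted p = 0.153), and Hyou1 turned to -1.12 (adjusted p = 0.279).

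In single cells the 9 prePC outside cluster 4 had a median of 5125 CPM for the 10 genes summed, against 1460 CPM in the 40 prePC of cluster 4. CPM in this paragraph is over all UMIs, immunoglobulin included and without TMM scaling, so it is not comparable with the levels above. The medians were 11865 CPM in PC, 885 CPM in preMem, 1710 CPM in LZtoDZ, 884 CPM in DZ and 1169 CPM in LZ. The 9 cells spanned 2029 to 10638 CPM, and the 40 spanned 247 to 15410 CPM. Of the 40, 14 exceeded the lowest of the 9, 25 exceeded the median GC cell, and none of the 9 exceeded the highest of the 40. For single cells, GC means all DZ, LZ and LZtoDZ cells pooled, without equal weight for the states. The 9 came from all mice, 5 from mouse 1, 3 from mouse 2 and 1 from mouse 3, and they were deeper cells in part, with 2256 to 33514 UMIs. Of them 4 had 31222 to 33514 UMIs, where the median prePC had 9225. Those in mouse 2 were at 7300, 6546 and 5246 CPM, that of mouse 3 at 10638 CPM on 24 UMIs of the 10 genes, and those in mouse 1 at 5125, 3331, 2459, 2219 and 2029 CPM. Immunoglobulin took 30.1% of the 2256 UMIs of the mouse 3 cell, against 1.3% to 3.4% in the others. Of the 9, 6 were called S or G2M and 3 were called G1, against 39 of 40 called G1 in cluster 4. The G1 cells were at 7300, 3331 and 2459 CPM. Pooled over cells, Sdf2l1 was at 547 CPM in the 9 and 124 CPM in the 40, Creld2 at 238 and 65.9 CPM, Hspa5 at 1089 and 439 CPM and Hsp90b1 at 1309 and 679 CPM. Of the 9, 3 lay in cluster 0, 2 in cluster 1, 2 in cluster 3 and 2 in cluster 5, which held 159 of the 165 LZtoDZ. The 2 of cluster 5, both G2M cells of mouse 2, held 42 and 30 UMIs of Sdf2l1, and the others held 0 to 11 each. Dnajb9 was at 17.8 CPM in the 9, on 3 UMIs, and 20.3 CPM in the 40, on 8 UMIs. The clusters were made from all genes of these cells, so these values are given without a test. Of the 137 PC, 91 exceeded every GC cell and 127 exceeded the 99th percentile of the pooled GC cells.

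**Figure D3:**
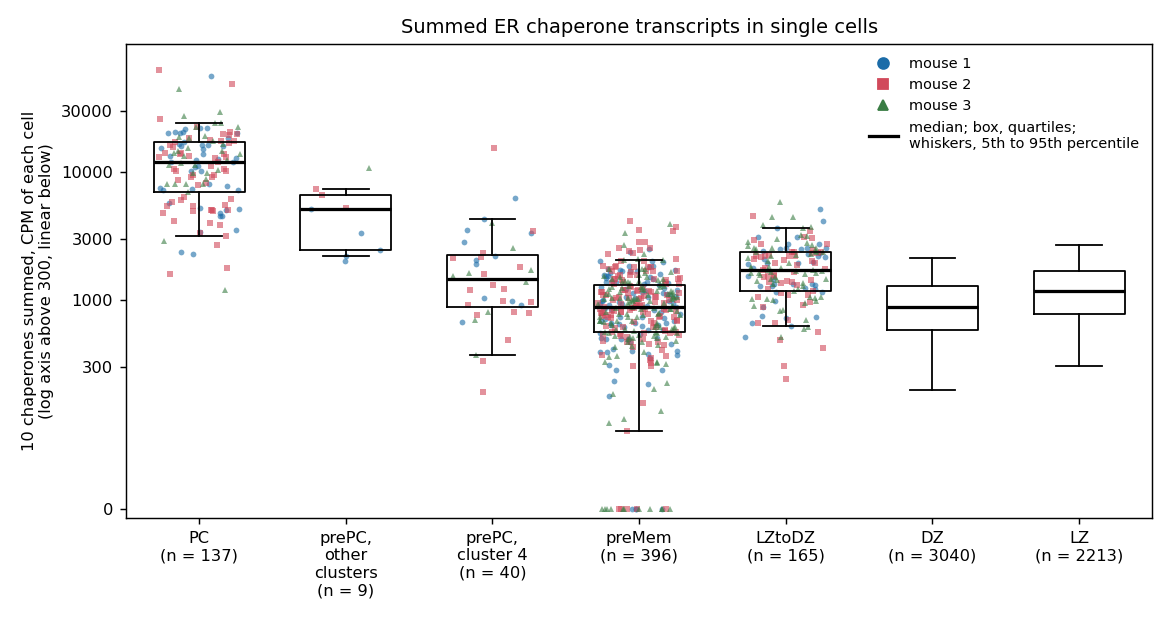
UMIs of the 10 chaperones summed per cell, as CPM of all UMIs of that cell (log axis with a linear part near 0), by state, with prePC split by cluster; boxes give quartiles, whiskers the 5th to 95th percentile, and points the cells of each mouse except in DZ and LZ. The 9 prePC of other clusters have a median of 5125 CPM, between that of PC (11865) and that of the 40 prePC of cluster 4 (1460).

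Set against preMem, with which most prePC shared a cluster, prePC were higher in 8 of the 10 genes, beside 4.27% of all genes tested. All 3 mice of prePC stood above all preMem values in 9 genes, beside 8.27% of all genes. Sdf2l1 was at 2.25 ± 0.27, Creld2 at 2.04 ± 0.22 and Hsp90b1 at 1.81 ± 0.13; Dnajb9 (0.94 ± 0.52, adjusted p = 0.339) and Hyou1 (1.20 ± 0.49, adjusted p = 0.162) did not pass. With 10 cells drawn per mouse and state 3 passed, beside 1.26% of all genes. Without mouse 1 or without mouse 2, 5 passed, beside 1.9% and 1.42%. Against LZtoDZ, prePC were higher in 6 genes, beside 15.0% of all genes: Dnajb9 (1.37 ± 0.51), Hsp90b1 (1.15 ± 0.13), Dnajb11 (0.75 ± 0.17), Dnajc3 (0.74 ± 0.16), Creld2 (0.74 ± 0.20) and Calr (0.51 ± 0.14). Dnajb9, with an adjusted p of 0.0449, passed in 3 of 15 alternatives, and not with RLE scaling (adjusted p = 0.0526), scaled to all UMIs (0.0885) or without any 1 of the mice. Scaled to all UMIs 4 genes passed, beside 12.6% of all genes. Without mouse 2 only Hsp90b1 of these did, beside 9.77%, and without mouse 1 only 3 did, beside 10.0%. With the prePC of cluster 4 alone 2 genes passed as higher, beside 13.5% of all genes, and 2 as lower, beside 19.8%.

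Within the germinal center, LZtoDZ cells held more chaperone transcripts than LZ cells in 5 of the 10 genes, beside 23.1% of all genes, and fewer in 1, beside 25.1%. Hsp90b1 was at 1.03 ± 0.13, Sdf2l1 at 0.97 ± 0.23, Creld2 at 0.84 ± 0.18, Canx at 0.62 ± 0.15 and Calr at 0.50 ± 0.13. Dnajb9 was lower, at -0.69 ± 0.26 (adjusted p = 0.0271), with 5.79, 9.03 and 6.79 CPM in LZtoDZ against 12.0, 12.0 and 11.7 CPM in LZ; it did not pass without any 1 of the mice. In the same comparison 16 of the 18 cytosolic and mitochondrial chaperones were higher in LZtoDZ. Against DZ, LZtoDZ were higher in 8 genes, beside 22.4%, all but Dnajb9 and Dnajb11. Of LZtoDZ cells 106 of 165 were called S and 17 G1, against 1235 of 2213 LZ cells called G1. Among G1 cells alone, 2 of the 10 genes passed against LZ, beside 8.27% of all genes, and 2 against DZ, beside 9.40%. Against LZ these were Hsp90b1 (1.03) and Hspa5 (0.73, against 0.42 among all cells, where it did not pass). Creld2 was at 0.75 and did not pass (adjusted p = 0.193), and Sdf2l1, Canx and Calr were at 0.28, 0.06 and -0.08. Against DZ, Hsp90b1 (1.65) and Hspa5 (1.35) passed, Creld2 and Hyou1 were at 0.96 and 0.93, against 1.04 and 1.03 among all cells, and Sdf2l1, Canx and Calr were at 0.57, 0.42 and 0.26.

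DZ cells were lower than LZ cells in 4 of the 10 genes, beside 11.6% of all genes: Hspa5 (-0.73 ± 0.21), Hyou1 (-0.70 ± 0.11), Calr (-0.44 ± 0.13) and Dnajb9 (-0.41 ± 0.13). In all 10 genes each mouse of DZ was below each mouse of LZ, beside 24.2% of all genes. Hspa5, for one, was at 198, 199 and 198 CPM in DZ against 350, 323 and 316 CPM in LZ. With immunoglobulin genes left out of the counts 9 of the 10 passed, beside 19.0% of all genes. Scaled to all UMIs 2 passed, Hspa5 and Hyou1, beside 9.38%. Without mouse 1 or without mouse 2 also 2 passed, beside 8.75% and 6.44%. preMem were lower than LZ in 4 genes (6 scaled to all UMIs), beside 15.8% (20.6% scaled to all UMIs): Sdf2l1 (-0.95 ± 0.25), Hyou1 (-0.81 ± 0.29), Hspa5 (-0.71 ± 0.21) and Calr (-0.47 ± 0.14). Hsp90b1 was higher in preMem (0.36 ± 0.13, adjusted p = 0.0419), beside 17.7% of all genes, but not when scaled to all UMIs or without mouse 2 or mouse 3. Without mouse 1 only 1 of the 4 lower genes passed, beside 12.2% of all genes.

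In PC the cell cycle call went with chaperone level on the scale of non-immunoglobulin transcripts, and much less when all UMIs were the base. Of the 137 PC, 91 were called G1, 24 S and 22 G2M. Immunoglobulin took 48.0% of UMIs in G1, 13.2% in S and 27.8% in G2M. On the TMM scale, 8 of the 10 genes were lower in S than in G1, beside 16.1% of the 3324 genes tested and adjusted over in PC phases, and 9 had no overlap between mice, beside 23.6%. By contrast, 1 of the 10 was lower when scaled to all UMIs (Dnajb9), beside 4.21%, and 1 higher (Canx), beside 52.9%, with the median of all genes at 0.83 and that of the 10 genes at -0.18, against 0.06 and -0.92 on the TMM scale. On both scales the 10 genes thus lay below the median gene, while the sign of most of their differences depended on the scale. In UMIs per cell, S-phase PC held more: a median of 369 UMIs of the 10 genes per PC in S, 406 in G2M and 202 in G1, with 29928, 32291 and 21961 UMIs of all genes.

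Dnajb9 was lower in S on both scales. It was at 63.5, 120 and 96.0 CPM in S in mice 1, 2 and 3, against 264, 339 and 346 CPM in G1 (TMM scale), a log2 difference of -1.73 ± 0.23 (adjusted p = 6.3e-06). The difference was -0.97 ± 0.26 scaled to all UMIs (adjusted p = 0.0016). In molecules it was at 2.17, 4.09 and 3.57 UMIs per PC in S against 3.47, 4.07 and 5.00 UMIs per PC in G1, which overlap. Creld2 was at 596, 541 and 610 CPM in S against 1403, 1397 and 1465 CPM in G1 (-1.29 ± 0.25, adjusted p = 0.0019), and at -0.55 ± 0.26 scaled to all UMIs (adjusted p = 0.0658). Dnajc3 was at 483, 384 and 526 CPM in S against 1134, 997 and 1078 CPM in G1 (-1.21 ± 0.18), and at -0.45 ± 0.23 scaled to all UMIs (adjusted p = 0.0840). For both, the S and G1 values had no overlap on the TMM scale.

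Hsp90b1 was at 6640, 5723 and 6276 CPM in S against 11159, 10902 and 13158 CPM in G1 (-0.92 ± 0.12, adjusted p = 3.5e-05), but at -0.18 ± 0.19 scaled to all UMIs (adjusted p = 0.420). Over all UMIs its pooled level was 7001 CPM in S and 6915 CPM in G1, and a PC held 214 of its UMIs in S and 149 in G1 on average. Hyou1 (-1.19 ± 0.25), Hspa5 (-0.93 ± 0.22), Sdf2l1 (-0.77 ± 0.20) and Dnajb11 (-0.58 ± 0.16) were likewise lower in S on the TMM scale, but were at -0.43, -0.18, -0.02 and 0.17 scaled to all UMIs and did not pass there. Calr was at -0.42 ± 0.18 on the TMM scale (adjusted p = 0.0681) and 0.33 ± 0.24 scaled to all UMIs (adjusted p = 0.229). Canx was at -0.03 ± 0.17 on the TMM scale and was higher scaled to all UMIs, at 0.73 ± 0.23 (adjusted p = 0.0045). Of S-phase PC, 8 of 24 were in the larger barcode series, against 7 of 91 in G1. With PC of the smaller series alone, 8 of the 10 remained lower in S on the TMM scale, beside 15.6% of genes, with Dnajb9 at -1.42 and Hsp90b1 at -0.72.

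Between G2M and G1, 2 of the 10 genes were lower in G2M on the TMM scale, beside 4.99% of genes tested. Dnajc3 was at 647, 704 and 529 CPM in G2M against 1134, 997 and 1078 CPM in G1 (-0.77 ± 0.17, adjusted p = 0.0036), and Dnajb9 was at 175, 123 and 241 CPM in G2M against 264, 339 and 346 CPM in G1 (-0.78 ± 0.23, adjusted p = 0.0214). Neither overlapped between phases. They were at -0.25 and -0.26 scaled to all UMIs and did not pass, and Canx passed as higher (0.59 ± 0.23, adjusted p = 0.0466), beside 26.6% of genes. Dnajc3 did not pass without mouse 3 (adjusted p = 0.101), and Dnajb9 did not pass without mouse 1, 2 or 3 (adjusted p = 0.0636, 0.189 and 0.0831). Creld2 in G2M was 1451 and 1611 CPM in mice 1 and 2 but 679 CPM in mouse 3, and G2M held 10, 6 and 6 PC per mouse.

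**Figure D4:**
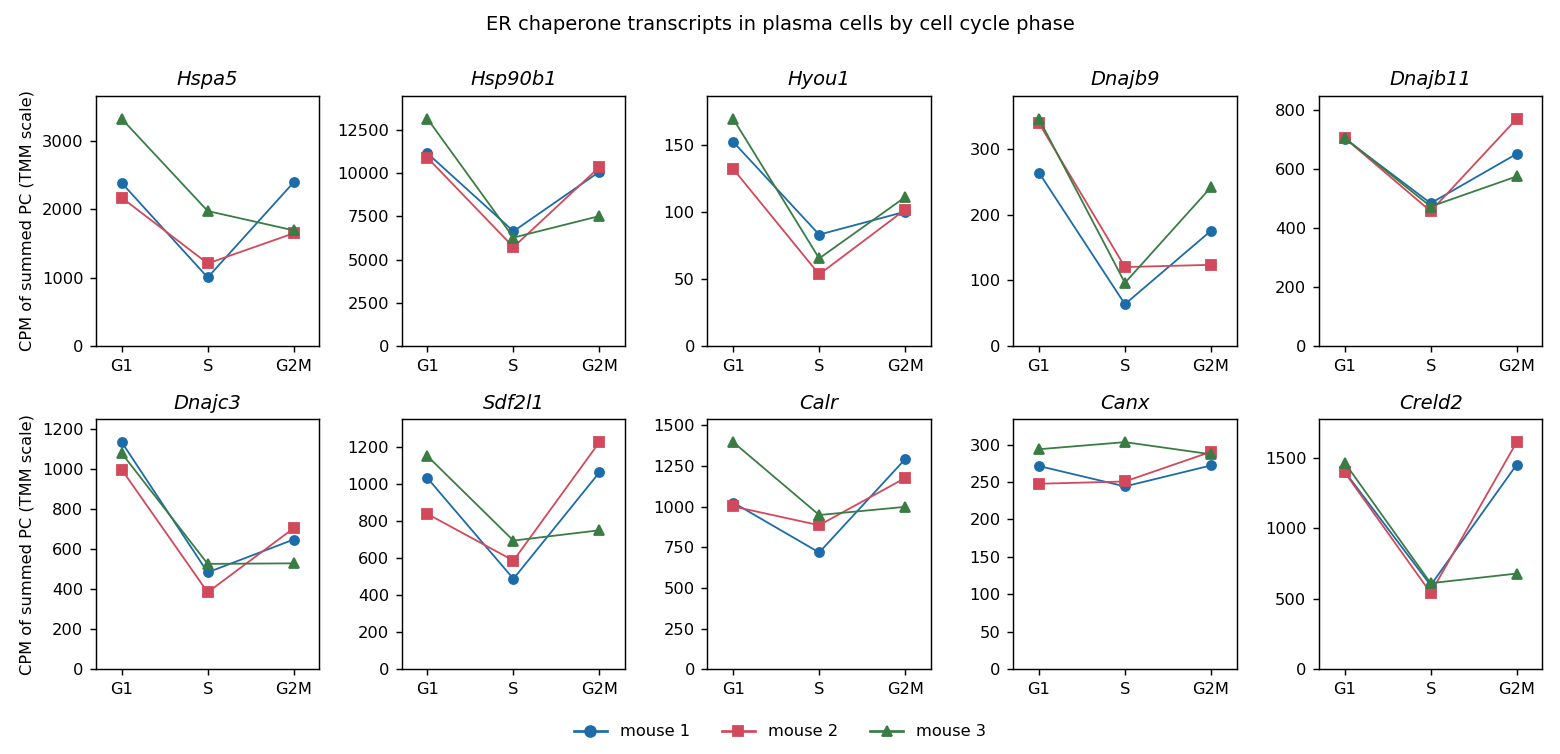
CPM of summed PC (TMM scale) in G1, S and G2M for each of the 10 genes, with 1 line per mouse and linear axes from 0. On this scale 9 genes have all mice lower in S than in G1, Dnajb9 most (a mean of 93.2 CPM in S and 316 CPM in G1); scaled to all UMIs, Calr, Canx and Dnajb11 turned to higher in S (0.33, 0.73 and 0.17 on the log2 scale), and of the 10 only Dnajb9 was lower by the test.

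The pathway lists split in PC by phase on the TMM scale. In S against G1, 5 of 9 tested sensors and factors were lower, among them Creb3l2 (-2.20 ± 0.31), Xbp1 (-1.39 ± 0.16) and Atf6 (-1.36 ± 0.33), and none higher, with a median of -0.97; Atf4 was at -0.54 ± 0.28 (adjusted p = 0.131), and Ern1, Eif2ak3 and Ddit3 were too low in PC phases to be tested. Of the 15 other ER cofactors 11 were lower, among them Pdia4 (-1.42 ± 0.17), Sil1 (-1.39 ± 0.29) and Herpud1, a membrane protein of ER-associated degradation (-1.32 ± 0.26), and none higher, with a median of -0.89. Of 17 cytosolic and mitochondrial chaperones 8 were higher, beside 19.0% of genes tested, and none lower, with a median of 1.01; Hsp90aa1, the inducible cytosolic Hsp90, was at 1.94 ± 0.20, the mitochondrial Hspd1 at 1.72 ± 0.24 and Hspa8 at 1.72 ± 0.24. In G2M against G1, 3 of 9 sensors and factors were lower (Creb3l2 -1.37 ± 0.31, Xbp1 -1.14 ± 0.16 and Creb3 -0.86 ± 0.28), while Atf6 (-0.67 ± 0.33, adjusted p = 0.212) and Atf4 (-0.14 ± 0.28, adjusted p = 0.830) did not pass. Of the 15 cofactors 3 were lower (Sil1 -0.92 ± 0.29, P4hb -0.73 ± 0.16 and Pdia4 -0.59 ± 0.16), and 1 of 17 cytosolic and mitochondrial chaperones was higher, Hsp90aa1 (1.10 ± 0.21), beside 8.51% of genes. The medians in G2M were -0.14, -0.18 and 0.13. With all UMIs as the base, the lists in S had 2 of 9 sensors and factors lower and 1 higher, 2 of 15 cofactors lower and 1 higher, and 16 of 17 cytosolic and mitochondrial chaperones higher, beside 52.9% of genes higher and 4.21% lower; in G2M the medians turned to 0.39, 0.33 and 0.67.

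DZ cells divide too, and in them immunoglobulin took 1.46% of UMIs. In DZ, 3 of the 10 genes were higher in S than in G1, beside 22.4% of 8887 genes tested: Sdf2l1 (0.79 ± 0.09), Hsp90b1 (0.53 ± 0.08) and Canx (0.17 ± 0.06). Hyou1 (-0.66 ± 0.20) and Hspa5 (-0.14 ± 0.05) were lower, beside 17.6%. In G2M against G1, Hsp90b1 (0.94 ± 0.08) and Sdf2l1 (0.36 ± 0.09) were higher, beside 21.5%, and Hspa5 was lower (-0.16 ± 0.05), beside 18.9%. Hsp90b1 was at 202, 214 and 234 CPM in G2M, 177, 164 and 154 CPM in S and 103, 128 and 109 CPM in G1 of DZ, with no overlap between phases. Scaled to all UMIs, Canx in S no longer passed, and Calr passed as lower in both phases. Without mouse 2 no gene of the 10 passed as lower in either phase, beside 12.6% of all genes in S and 13.5% in G2M.

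The phase effect itself differed between PC and DZ. In S against G1 the difference of the effects, PC minus DZ, was below 0 by the test for 6 of the 10 genes, beside 3.84% of 8288 genes tested. These were Dnajb9 (-1.75 ± 0.31, adjusted p = 0.00014), Creld2 (-1.64 ± 0.39, adjusted p = 0.0159), Sdf2l1 (-1.41 ± 0.24, adjusted p = 6.8e-05), Hsp90b1 (-1.32 ± 0.19, adjusted p = 0.00058), Dnajc3 (-1.22 ± 0.22, adjusted p = 0.00015) and Dnajb11 (-0.61 ± 0.20, adjusted p = 0.0498). In G2M it was below 0 for Hsp90b1 (-1.22 ± 0.19, adjusted p = 0.0056), beside 0.615% of genes. Without mouse 1 the S count was 3 of the 10, beside 2.76% of genes, and Hsp90b1 in G2M did not pass, where 0.284% of genes did as below 0. Scaled to all UMIs, where the median gene was at 0.91 in S and 0.61 in G2M, Hsp90b1 passed in both phases (-0.51 ± 0.19, adjusted p = 0.0384, and -0.62 ± 0.19, adjusted p = 0.0322), the other 5 did not pass, and Dnajb11 turned to 0.22 ± 0.23. Of the genes that had not passed, Hspa5, Calr, Canx and Hyou1 in S and Hspa5, Dnajb11, Sdf2l1, Creld2 and Hyou1 in G2M turned above 0 as well. Canx in S (0.76 ± 0.23, adjusted p = 0.0083) and Calr in G2M (0.83 ± 0.28, adjusted p = 0.0386) then passed as above 0, beside 34.0% and 12.9% of genes.

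**Figure D5:**
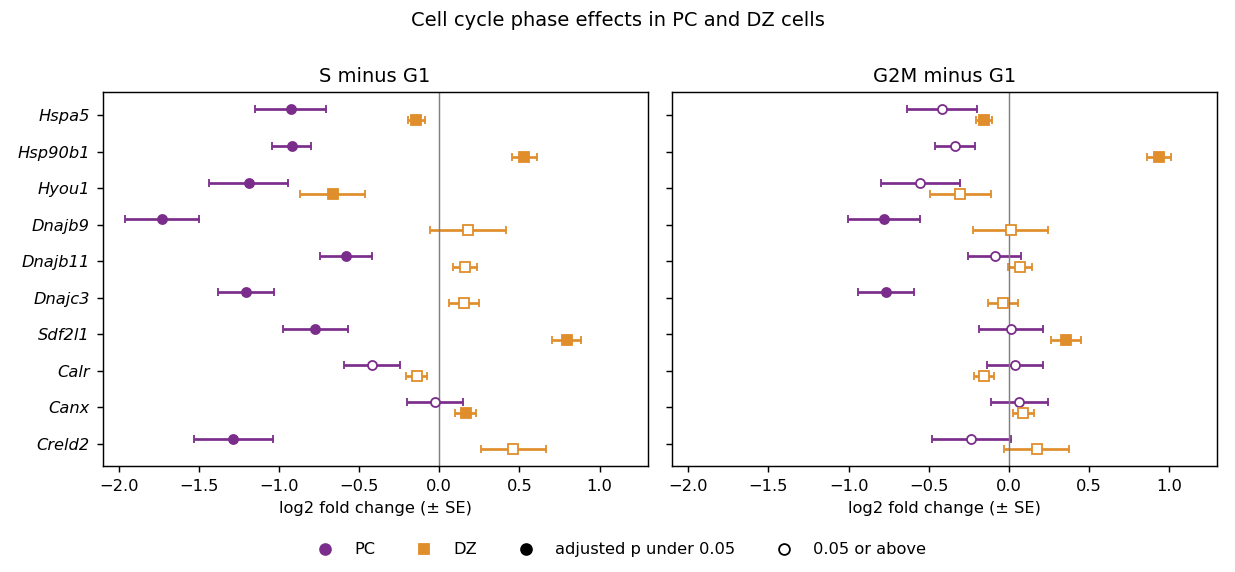
Log2 fold changes with SE of S minus G1 and G2M minus G1 within PC (circles) and DZ (squares), filled where the adjusted p was under 0.05 (edgeR, TMM scale). Hsp90b1 is below 0 in PC (-0.92 in S) and above 0 in DZ (0.53 in S); scaled to all UMIs its PC value was -0.18 in S and 0.17 in G2M, and in PC Calr, Canx and Dnajb11 in S and Hspa5, Dnajb11 and Creld2 in G2M also changed sign, as did Dnajb9 and Dnajb11 in G2M in DZ.

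The ratio of the highest to the lowest mouse had a median over the 10 genes of 1.17 in PC, 2.05 in prePC, 1.45 in preMem, 1.18 in LZtoDZ, 1.09 in DZ and 1.09 in LZ. In preMem it reached 2.35 for Hyou1. In prePC it reached 3.69 for Sdf2l1, and mouse 3, with 10 prePC, was lowest in 7 of the 10 genes. In PC the widest was Hspa5, at 1.41. Every mouse had PC above prePC in all 10 genes.

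Within single PC, Spearman's correlation of a gene with the sum of the other 9, both over non-immunoglobulin UMIs of the 137 PC, was 0.74 for Hsp90b1, 0.67 for Creld2, 0.62 for Hspa5, 0.61 for Sdf2l1 and 0.60 for Dnajb11, and lowest for Dnajb9 (0.33) and Canx (0.32), which had medians of 3 and 4 UMIs per cell. The summed genes had a correlation of 0.55 with the authors' plasma cell score, which may hold some of these genes, and of 0.22 with Xbp1, which was -0.07, 0.39 and 0.38 within mice 1, 2 and 3. With the immunoglobulin share it was 0.26 over non-immunoglobulin UMIs and -0.24 over all UMIs, so its sign followed the base. These cells share libraries and a denominator, and the values are descriptions.

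Over the 18 sums of mouse and state, the genes most like the mean profile of the 10 were Slc35b1 (Pearson's r of log2 CPM 0.994), Ssr2 (0.991), Manf (0.991), Surf4 (0.990), Pdia3 (0.990), Pdia6 (0.988), Sec61b (0.988) and Tmed2 (0.987), among 3616 genes considered. Without the 3 PC sums they kept 0.883 to 0.975. Sec61b and Ssr2 belong to the ER translocon and its associated complex, Surf4 and Tmed2 to cargo transport out of the ER. Among the 10 genes, Calr followed the other 9 most closely without PC (r = 0.986) and Dnajb9 least (r = 0.362), over 15 sums that share depth within a mouse.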

How the data were processed

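Per the labels, single-cell 5′ libraries were made from pooled, hashtagged mice. The submitters' processing notes name Cell Ranger, Seurat, mm10 and GRCm38, with no versions of the tools. The authors deposited raw UMI counts per gene and cell in 1 matrix, not normalized, and a table that gives each cell its mouse, state, cluster, phase and scores. The score of plasma cell genes is the authors' own; its genes, the cell filters and the handling of doublets are not given here by any source. Phases are the authors' calls; free RNA was not estimated.

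Counts were summed per mouse and state (at least 10 cells) or per mouse, state and phase (at least 5 cells). They were fitted with edgeR 4.0.16 in R 4.3.3 (filterByExpr, TMM, quasi-likelihood F test), all states in 1 fit, the phases of PC, of DZ and of both in 1 fit each, and p-values were adjusted by Benjamini-Hochberg over all genes tested with a threshold of 0.05. Each SE was derived as the absolute log2 fold change divided by the square root of the test's F statistic. It is not a separately fitted standard error and need not match the p-value in every gene. Names of mice do not tie cells to the labels' libraries, so the replicate is the mouse. The states of a mouse come from the same animal, so mouse was a block. Deviations of same-mouse sums from the state means had a median correlation of 0.0912 (45 pairs, 2706 genes), against -0.0512 for different mice. Deviations from a mean of 3 mice sum to 0, which ties the second value to the first, so their contrast cannot test the block. Depth per sum did not follow cell numbers across states: in mouse 3, 33 PC held 775666 UMIs and 144 preMem held 676717. On simulated counts with 200 changed genes, the fit called 88.0% of log2 changes of 1 and 100.0% of those of 2 for PC against GC (8473 genes). It called 49.0% and 97.0% for prePC against GC (8473 genes), and 36.0% and 91.0% for PC in G2M against G1 (3324 genes). Changed genes were drawn from those with an expected count above 5 in the smallest sum, with 1 dispersion of 0.05 and no mouse effect. The rates do not cover genes with fewer counts, and Dnajb9 and Hyou1 had few UMIs in prePC. Likeness used log2(CPM + 1) of genes with at least 50 CPM in a state. Gene symbols are the matrix's; promoters are RefSeq's, searched in Python 3.11.15. The 255 immunoglobulin genes were kept in the counts except where stated. Cells were set aside in 1 alternative as holding RNA of another cell type at 2 UMIs of its markers.

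By rule the text names all 10 genes, the 8 genes of highest likeness and, from the lists of sensors and factors, other ER folding cofactors and cytosolic and mitochondrial chaperones, Xbp1, Ern1, Atf6, Eif2ak3, Atf4 and Ddit3 always and otherwise up to 3 called genes of largest change per direction; genes with the promoter element were named after their values were seen. The 10 genes, the lists and the tests were chosen with earlier results of these data known. Alternatives were DESeq2 1.42.0, RLE scaling, no filter, no block, each mouse left out, immunoglobulin genes left out, at least 20 cells a sum (3 for phases), the larger barcode series, 10 cells drawn per sum, G1 cells and cells without other-type RNA. Scaling to all UMIs, prePC of cluster 4 and PC of the smaller series were chosen after seeing the data.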

Additional observations from a re-analysis of the deposited data

Results flagged for a closer look

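The effect of cell cycle phase differed between PC and DZ by the test of the difference itself, in edgeR's quasi-likelihood fit on the TMM scale. For S against G1 the difference, PC minus DZ, was -1.75 for Dnajb9, -1.64 for Creld2, -1.41 for Sdf2l1, -1.32 for Hsp90b1, -1.22 for Dnajc3 and -0.61 for Dnajb11. For G2M against G1 it was -1.22 for Hsp90b1. Immunoglobulin took 13.2% of UMIs in S, 27.8% in G2M and 48.0% in G1 of PC, and 1.46% in DZ. Scaled to all UMIs, Hsp90b1 alone of the 6 passed in S, Dnajb11 turned to 0.22, and Hsp90b1 was at -0.62 in G2M. With 3 mice a group, samples far from the others were not looked for.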

How the results depend on the processing

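Of the values of the 10 genes over all comparisons and alternatives, 1610 kept their direction and side of the threshold, 157 no longer passed, 60 newly passed and 74 changed sign. Leaving out the replicate block for mouse changed no count of called genes (10 for PC against GC cells, 8 for prePC against GC cells). The causes of the changes below were not tested. With prePC of cluster 4, chosen after seeing the data, 3 genes were higher in prePC than in GC cells, and 2 higher and 2 lower than in LZtoDZ; Hyou1 was at -1.12 against GC cells, and Hyou1 against preMem (-0.38) and Hspa5 (-0.15), Sdf2l1 (-0.54), Creld2 (-0.10) and Hyou1 (-1.62) against LZtoDZ changed sign. With 10 cells a sum, higher counts were 3 for prePC against preMem and 2 for prePC against LZtoDZ, beside 1.26% and 19.2% of 2463 genes. They were 3 for LZtoDZ against LZ and 4 against DZ, beside 5.24% and 6.17%. In DZ against LZ 0 were lower, beside 0.0406% of genes. In preMem against LZ 0 were lower or higher, beside 2.4% and 6.21%. The signs of Dnajc3 for prePC against preMem (-0.0094), Canx for prePC against LZtoDZ (0.0069), Sdf2l1 for DZ against LZ (0.050), Dnajc3 for LZtoDZ against LZ (-0.19), and Canx (0.11) and Sdf2l1 (0.19) for preMem against LZ changed there. With G1 cells, 2 were higher for prePC against LZtoDZ, LZtoDZ against LZ and LZtoDZ against DZ, beside 10.9%, 8.27% and 9.4% of genes. Among them 2 were lower for DZ against LZ (6.81% of genes), 0 lower for LZtoDZ against LZ (11.8%) and 0 higher for preMem against LZ (11.6%). Sign changes were Hyou1 (-0.66) for prePC against GC, Hspa5 (-0.20), Canx (0.41) and Hyou1 (-1.10) for prePC against LZtoDZ, Calr (-0.078) and Dnajc3 (-0.35) for LZtoDZ against LZ and Dnajc3 (-0.29) and Dnajb9 (0.37) for LZtoDZ against DZ. With at least 20 cells a sum, 7 were lower in DZ than in LZ, beside 12.4% of genes, and 0 higher in preMem than in LZ, beside 17.5%. In that setting prePC rested on mouse 2 alone, and Canx was at 0.16 for prePC against LZtoDZ. Without cells holding other-type RNA, where prePC rested on mice 1 and 2, Canx was at 0.093 in that comparison. The larger barcode series gave 0 lower genes for LZtoDZ against LZ, beside 23.5% of genes, and Hyou1 at -0.076 for prePC against LZtoDZ, where no filter gave -0.035. Scaled to all UMIs, also added later, 2 were lower in DZ than in LZ, beside 9.38% of genes. On that base 6 were lower and 0 higher in preMem than in LZ (20.6% and 12.7% of genes), and 4 higher in prePC than in LZtoDZ (12.6%). In PC, 1 was lower and 1 higher in S (4.21% and 52.9% of genes), and 0 lower and 1 higher in G2M (1.2% and 26.6%). In DZ 2 were lower in G2M, beside 24.9% of genes. The difference of phase effects was above 0 for 1 gene in S and 1 in G2M (34.0% and 12.9% of genes), and below 0 for 1 in S (0.929%). Signs changed for Canx in PC against prePC (-0.068), Calr (0.33), Canx (0.73) and Dnajb11 (0.17) in S, Hspa5 (0.11), Hsp90b1 (0.17), Dnajb11 (0.43) and Creld2 (0.28) in G2M, Hspa5 (0.17), Calr (0.66), Canx (0.76), Dnajb11 (0.22) and Hyou1 (0.44) in the difference in S, and Hspa5 (0.39), Dnajb11 (0.50), Sdf2l1 (0.30), Creld2 (0.25) and Hyou1 (0.49) in that in G2M. They also changed for Hyou1 in prePC against LZtoDZ (-0.038), Dnajc3 in preMem against LZ (-0.10), and Dnajb9 (-0.069) and Dnajb11 (-0.010) in DZ in G2M. Dnajb9 in DZ in G2M was at -0.0083 with DESeq2 and -0.011 without the replicate block, and Canx in the difference in G2M at -0.029 with no filter. With immunoglobulin genes left out, 9 were lower in DZ than in LZ (19.0% of genes) and 2 were lower in DZ in G2M (20.2%). The difference in G2M was then below 0 for 2 (0.922%), and Canx in S was at 0.010. PC of the smaller series gave 1 lower gene in G2M, beside 5.57% of genes, and Canx at 0.16 in S. DESeq2 gave 0 lower genes for LZtoDZ against LZ (21.7% of all genes), 1 for PC in G2M (2.5%) and 0 for DZ in S and in G2M (6.45% and 7.37%). It gave 1 higher for DZ in G2M (13.4%), and 2 below 0 for the difference in G2M (1.62%). Leaving out each mouse gave 5 to 8 genes for prePC against preMem, 1 to 6 for prePC against LZtoDZ, 0 lower for LZtoDZ against LZ, 2 to 4 for DZ against LZ, 0 to 1 higher and 1 to 3 lower for preMem against LZ, 0 to 2 for PC in G2M, 0 to 2 lower for DZ in S and in G2M, and 0 to 1 in G2M and 3 to 5 in S for the difference. Signs changed for Hspa5 (-0.084 to 0.61), Canx (-0.48 to 0.017, with 0.0034 without mouse 1) Sdf2l1 (-0.21 to 0.61) and Hyou1 (-0.074 to 0.080) in prePC against LZtoDZ, for Dnajb11 in LZtoDZ against LZ (-0.12 to 0.091), Dnajc3 in preMem against LZ (-0.015 to 0.12), for Canx in PC in S (-0.076 to 0.044), in its difference in S (-0.14 to 0.081) and in PC in G2M (-0.013 to 0.11). They also changed in PC in G2M for Calr (-0.12 to 0.28), Dnajb11 (-0.20 to 0.0027), Sdf2l1 (-0.26 to 0.28) and Creld2 (-0.48 to 0.12), in DZ in G2M for Creld2 (-0.11 to 0.56), Dnajb9 (-0.31 to 0.24) and Dnajc3 (-0.15 to 0.064), and in the difference in G2M for Hspa5 (-0.49 to 0.13), Canx (-0.075 to 0.16), Dnajb11 (-0.25 to 0.081), Sdf2l1 (-0.62 to 0.12) and Creld2 (-0.93 to 0.30). In single PC, the correlation with the immunoglobulin share was -0.24 over all UMIs (-0.33 and -0.25 in mice 1 and 2), that with Xbp1 in mouse 1 was -0.071 (-0.18 over all UMIs), and that with total UMIs was 0.024 over all UMIs, and 0.049 in mouse 3 (0.20 over all UMIs). Over all genes, the share higher in PC than in GC cells was 6.72% to 27.9% and the share lower 6.8% to 70.8% across alternatives; for PC in S it was 6.84% to 52.9% higher and 4.21% to 17.5% lower, in G2M 3.46% to 26.6% and 1.2% to 5.57%. For prePC against GC it was 6.76% to 16.2% higher and 4.52% to 13.6% lower, apart from the setting of at least 20 cells. Of the called genes, those higher made up 48.0% for PC against GC (14% scaled to all UMIs), 52.6% for PC against prePC (12.9%), 57.0% for prePC against GC (41.3%), 54.2% in S (92.6%), 63.0% in G2M (95.7%), 52.8% for preMem against LZ (38.1%), 56.0% for DZ in S (43.7%), 53.2% for DZ in G2M (41.5%), 47.4% for the difference in G2M (98.1%) and 56.5% for the difference in S (46.5% with RLE, 97.3% scaled to all UMIs). Depth limits prePC most: 49 cells with 11 UMIs of Dnajb9 and 13 of Hyou1.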
